A study of Mus musculus with 16 samples.

Results

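Serpins are a family of proteins of which most inhibit serine proteases, and the genes described here were all those whose symbol begins with Serpin, with every probe that the annotation of the array gives them. These were 47 of 16773 named genes, measured by 56 probes. The study hybridised RNA of female C57BL/6 mice to 16 Illumina MouseWG-6 arrays, each labelled as liver or as a brown (BAT) or white (WAT) adipose depot. Room temperature mice were kept at 22 °C for 72 h, and cold mice at 22 °C for 48 h and then at 8 °C for 24 h, all housed alone on the same light cycle with no other treatment or altered gene named. Their age was not given in the sources used here. BAT and WAT had 3 arrays a temperature and liver had 2. Tissues of several kinds came from the same animals, and p-values measure the spread between these few arrays.

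A serpin offers a protease a loop as bait. Once the loop is cut the serpin springs into another shape with the protease bound to it, and both are spent. The liver is the main source of the serpins of blood plasma, which restrain neutrophil elastase, clotting factors, plasmin and complement, whereas clade B serpins stay inside cells. Some members have lost inhibition and serve as hormone carriers, as a chaperone of collagen or as signalling proteins. Clade letters follow the family tree and stand after "Serpin" in each symbol.

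Marker genes went against the labels WAT and liver, and those arrays are named below by label only. The deposited signal summed over 12 hepatocyte markers was 95090 to 103000 for labelled WAT at room temperature and 87500 to 97780 in the cold. For labelled liver it was 53960 to 84330 at room temperature but 214 to 1606 in the cold. Of the list's defining genes, Alb, which encodes albumin, was detected on 1 array and Fgb, a fibrinogen chain, on none. Summed adipocyte markers were 960.9 to 1470 for labelled WAT, against 40530 to 62130 for labelled liver. BAT arrays carried 31000 to 35340 of adipocyte signal, and also hepatocyte signal, 1937 to 3941 from the room temperature mice and 245.7 to 481.7 from the cold mice. All 11 skeletal muscle markers with a probe were detected on every BAT array. WAT cold array 3 stood apart by summed exocrine pancreas markers of 77760, and liver cold array 2 by muscle markers of 15340, lymphocyte markers of 2843 and brown adipocyte markers of 27650. The last were 2990 on liver cold array 1 and 54760 to 69980 in BAT. Fewer cells of a type in a sample and less RNA per cell cannot be told apart in such bulk RNA.

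The 4 Serpina1 genes with a promoter window in RefSeq are shown first, because they encode copies of α1-antitrypsin, the plasma inhibitor of neutrophil elastase, and 3 of them were among the changed genes below. Serpina7, on the X chromosome, and Serpinf2, the gene with the widest difference by its brightest probe, stand beside them. Each line holds the 100 bases before the start of the gene, 5′ to 3′ on the gene's strand, from the mouse build GRCm38.p6. Capitals mark GTTAAT, which forms part of the binding site of the liver factor HNF1, and TATAAA.
Serpina1a, chr12:103863620-103863719, minus strand: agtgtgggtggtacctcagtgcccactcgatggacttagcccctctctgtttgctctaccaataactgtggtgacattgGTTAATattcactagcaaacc
Serpina1b, chr12:103738190-103738289, minus strand: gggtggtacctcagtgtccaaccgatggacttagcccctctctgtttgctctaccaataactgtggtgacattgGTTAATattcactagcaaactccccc
Serpina1d, chr12:103773634-103773733, minus strand: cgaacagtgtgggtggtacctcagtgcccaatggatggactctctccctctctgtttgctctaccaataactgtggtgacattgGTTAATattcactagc
Serpina1e, chr12:103956898-103956997, minus strand: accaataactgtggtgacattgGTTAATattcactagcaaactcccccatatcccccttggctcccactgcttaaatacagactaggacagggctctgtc
Serpina7, chrX:139085237-139085336, minus strand: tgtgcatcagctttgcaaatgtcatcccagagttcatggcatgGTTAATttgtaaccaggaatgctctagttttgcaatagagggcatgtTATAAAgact
Serpinf2, chr11:75439502-75439601, minus strand: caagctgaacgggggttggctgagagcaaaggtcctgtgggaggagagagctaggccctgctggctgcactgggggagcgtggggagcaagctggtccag
GTTAAT lay 21, 26, 16 and 78 bases before the start of Serpina1a, Serpina1b, Serpina1d and Serpina1e, inside a stretch of 38 bases that the 4 genes share. Over 250 bases before the start, Serpina1a, Serpina1b and Serpina1d were 89.2 to 91.2% identical to each other, and 72.8 to 77.6% identical to Serpina1e. RefSeq windows were matched for 41 of the 47 genes, 48 windows in all. GTTAAT, on either strand, was in 9 of the 48 and in 6.43% of all 32851 windows of that length. The 9 are not independent of each other. They are the 4 Serpina1 windows with their shared stretch, overlapping windows of Serpina7 that hold the same site, and those of Serpinb3d, Serpinb8 and Serpini2. An excess over all windows was therefore not tested. TATAAA was in 12 of 48 against 12.4%, CAAAGTCC, a core of HNF4 sites, in 1 of 48 against 1.2%, and the heat shock element GAANNTTC in 2 of 48 against 6.69%. The 12 windows with TATAAA are not independent either, since overlapping windows of Serpina7 and of Serpinb2 hold the same site. Differences from all windows were not tested for these motifs. None of the 4 motifs overlapped in the printed windows. These matches describe letters, and binding was not measured.

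Signals are given in the units of the deposited table, which has background subtracted and therefore runs below 0, and a probe is called detected at a detection score of at least 0.95. By this measure 30 of the 47 genes were detected on at least 1 array and 7 on every array. The 7 were Serpina1b, Serpina1d, Serpina3n, Serpinb6a, Serpinf1, Serping1 and Serpinh1. The other 17 were detected on no array and reached a signal of at most 12.8. They were Serpina16, Serpina1f, Serpina3b, Serpini2 and 13 genes of clade B (Serpinb1b, Serpinb3a, Serpinb3d, Serpinb5, Serpinb7, Serpinb9, Serpinb9b, Serpinb9c, Serpinb9d, Serpinb9e, Serpinb9g, Serpinb10 and Serpinb11). Of 16 clade A genes 13 were detected somewhere, against 10 of 23 in clade B. Clades C, D, G and H had 1 gene each, all detected on some array, as were both genes of clade F and 1 of 2 in clade I. Differences were tested with limma over the 39730 probes scoring 0.6 or more on 2 or more arrays, and p was adjusted over all of them (Benjamini-Hochberg, threshold 0.05). By their brightest probe 41 serpins were tested, and the 6 that were not are Serpinb1b, Serpinb5, Serpinb7, Serpinb9, Serpinb9e and Serpinb9g.

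**Figure D1:**
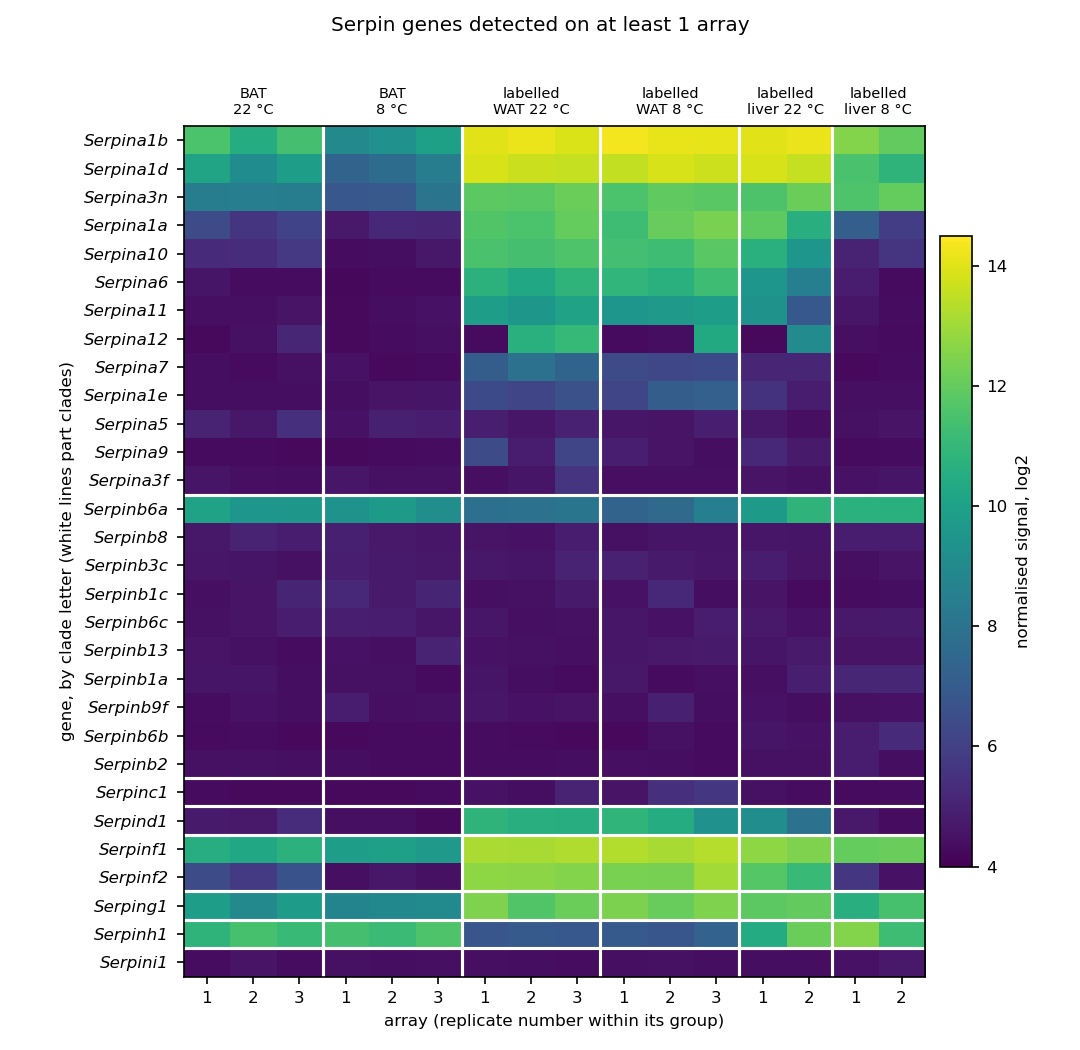
Normalised log2 signal (colour) of the 30 Serpin genes detected on at least 1 of 16 arrays, in rows by clade letter, with arrays in columns by group. Colours are to be read along a row, since probes of different genes differ in brightness. Most clade A rows and those of Serpind1, Serpinf1, Serpinf2 and Serping1 are brightest on the arrays labelled WAT, and that of Serpinh1 is darkest there.

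The widest differences between tissue labels at room temperature were those of plasma serpins of clades A, D and F. Serpinf2, which encodes α2-antiplasmin, the inhibitor that spares fibrin clots from plasmin, had signals of 68.8, 40.1 and 85.3 on the BAT arrays at room temperature. For labelled WAT they were 6856, 6503 and 5991.5, and for labelled liver 3332 and 2154. No array of one label overlapped another. At room temperature 16 of 41 serpins differed between labelled WAT and BAT, 14 being higher on labelled WAT and 2 lower, where 11.7% of all 15324 named genes were higher and 15.4% lower. Between labelled liver and BAT 12 differed, all higher (7.69% of all genes were higher and 8.78% lower), and between labelled WAT and labelled liver 10 did, 8 higher on labelled WAT and 2 lower (7.21% and 8.47% of all genes). Serpinf2 was 83.3-fold higher on labelled WAT than in BAT (log2 difference 6.38 ± 0.30 SE, adjusted p = 1.51e-08). A second, dimmer probe of Serpinf2 differed less, with mean log2 signals of 7.32 on labelled WAT and 4.53 in BAT.

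Serpina6 encodes the corticosteroid carrier of plasma. No BAT array detected it, with signals of 5.5, -4.3 and -4.7 for the room temperature mice and -12.4, -7.5 and -5.6 for the cold mice. For labelled WAT it reached 1737, 1231 and 1809, at least 57.2-fold above BAT (log2 6.21 ± 0.24, adjusted p = 3.37e-09). A gene that no array of a group detects is held at each array's lowest detected signal, which makes its fold a lower bound. Serpina10, the inhibitor of clotting factor X that works with protein Z, differed 66.6-fold (log2 6.06 ± 0.26, adjusted p = 7.26e-09), with 2847, 2765.5 and 3176 on labelled WAT. Serpina1a gave 3202, 2902 and 4174 there and differed 51.5-fold, and Serpina1d and Serpina1b 16.1-fold and 7.48-fold. The 2 last had BAT signals up to 1099 and 2842, and on labelled WAT at room temperature Serpina1d gave 15122, 12898 and 12259.9 and Serpina1b gave 16866, 20159.9 and 15866. On the arrays labelled WAT and the room temperature ones labelled liver, Serpina1b lay at percentile 99.96 to 100 of all probes and Serpina1d at 99.89 to 99.96, at the top of the range, so that their folds may be understated, which was not tested. Serpina11 was detected on no BAT array, with -0.4, -0.4 and 4.6 without cold and -8.0, -1.1 and 2.7 with cold, and gave 904, 729.5 and 1039 on labelled WAT. Which copy of Serpina1 a probe measured is uncertain, because the genes are near-identical and another copy was not analysed here.

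**Figure D2:**
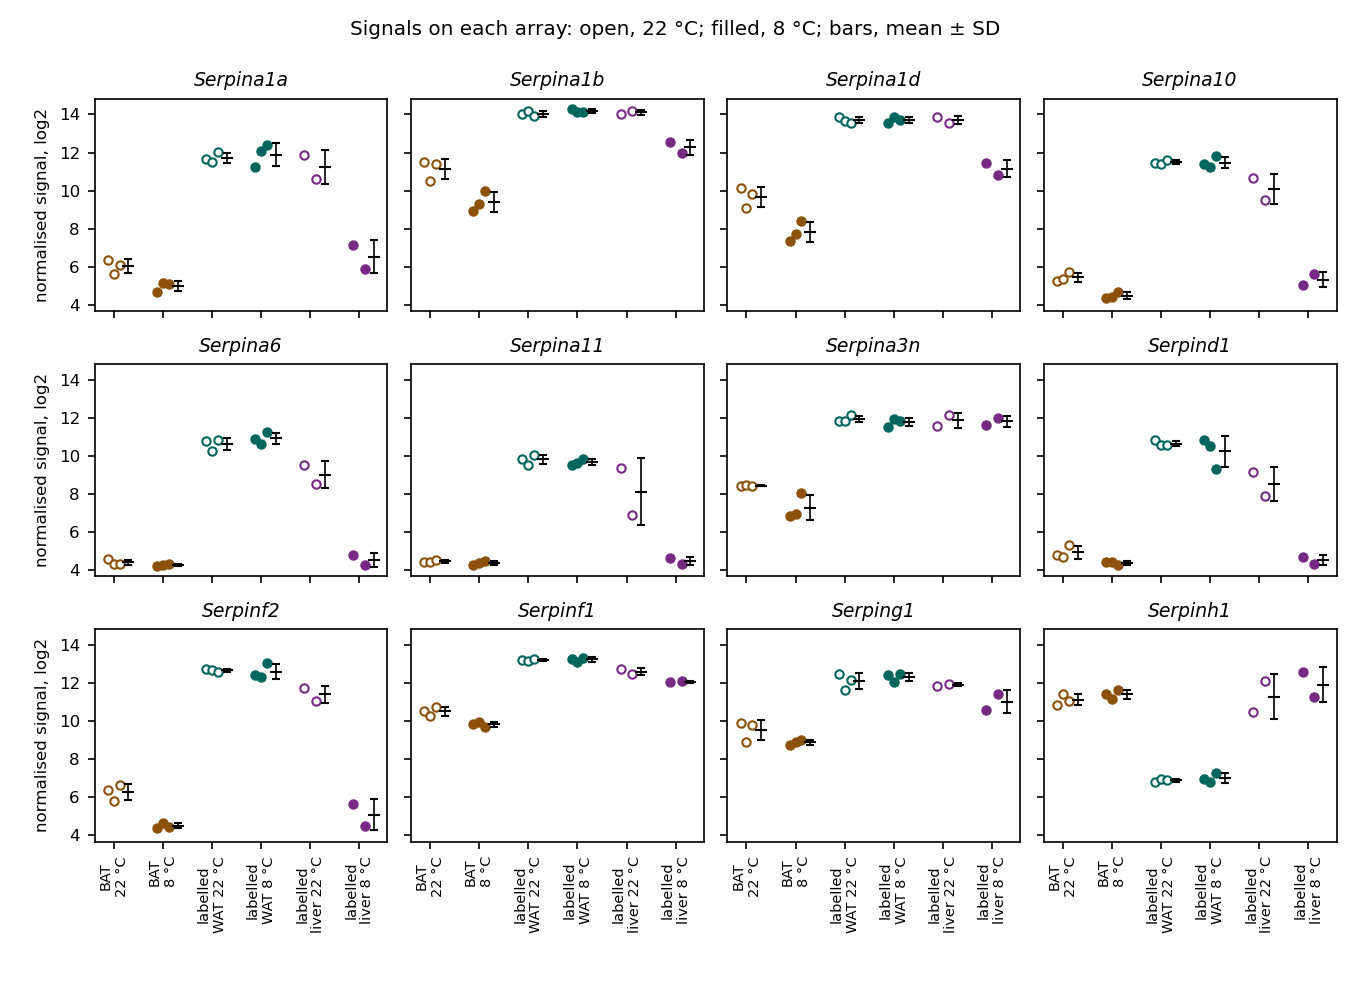
Normalised log2 signal of 12 serpins on each of 16 arrays (vertical axes) by group, open points for 22 °C, filled points for 8 °C and bars for mean ± SD over 3 arrays, or 2 for labelled liver. Serpinf2, Serpina10, Serpina6, Serpina11, Serpind1 and Serpina1a drop on the cold arrays labelled liver, Serpina3n does not, and Serpinh1 is low only on arrays labelled WAT.

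Serping1 is the C1 inhibitor, which restrains the first component of complement and plasma kallikrein, and it gave signals of 935, 471 and 885 in BAT at room temperature. On labelled WAT they were 5688, 3159 and 4472, 5.85-fold higher (log2 2.55 ± 0.28, adjusted p = 2.41e-05), and on labelled liver 3569.9 and 3933. In the cold it gave 415, 459 and 505 in BAT and 5562, 4202 and 5839 on labelled WAT. Serpind1, heparin cofactor II, an inhibitor of thrombin, gave 10.7, 9.0 and 24.8 in BAT, where 1 of 3 room temperature arrays detected it, and -0.1, 0.7 and -10.4 in the cold, where none did. It gave 1764.5, 1496 and 1494 on labelled WAT (52.2-fold above BAT, log2 5.71 ± 0.37, adjusted p = 1.87e-07) and 554 and 225 on labelled liver. The members higher on labelled WAT than on labelled liver at room temperature were Serpina1e, Serpina6, Serpina7, Serpina10, Serpina11, Serpind1, Serpinf1 and Serpinf2, by 1.51-fold (Serpinf1) to 5.09-fold (Serpina7). The summed hepatocyte markers were also higher there, and their part in the serpin differences was not tested. Without liver room temperature array 2 this count of 10 was 4. In the cold 16 serpins differed between labelled WAT and BAT, 14 higher and 2 lower (11.6% and 16.1% of all genes), and 17 between labelled WAT and labelled liver, 13 higher and 4 lower (12.0% and 16.9%). Between labelled liver and BAT 9 differed in the cold, all higher (11.9% of all genes were higher and 9.88% lower). Scaling by the 75th percentile in place of quantiles moved the median of all probes by -0.16 in that comparison and gave 17, 9 higher and 8 lower, the 8 being dim genes such as Serpina16 and Serpinb10. The share of all genes called under that scaling was not counted.

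Serpinh1 and Serpinb6a ran the other way. Serpinh1, also called Hsp47, is a chaperone of procollagen in the endoplasmic reticulum and inhibits no protease. Its signals were 1837, 2762 and 2109 in BAT and only 96.3, 109 and 105 on labelled WAT at room temperature, 18.7-fold lower (log2 -4.22 ± 0.39, adjusted p = 4.15e-06). In the cold they were 2769.6, 2263 and 3126 in BAT and 109, 95.2 and 142 on labelled WAT. The arrays labelled liver were high and scattered, with 1380.3 and 4470.5 without cold and 5978 and 2418 with cold, and the 2 temperatures overlapped. Col1a1, which encodes a chain of type I collagen, read 76.1 to 301.4 in BAT, -4.0 to 17.6 on labelled WAT and 86.6 to 389.6 on labelled liver, and so was also lowest on labelled WAT. Summed markers of fibroblasts and mesothelium, mostly decorin (Dcn), were 2163 to 3460, 1611 to 2231 and 5409 to 12310, and their part in the Serpinh1 difference was not tested.

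Serpinb6a, an intracellular inhibitor of clade B, had signals of 1052, 729 and 727.5 in BAT at room temperature and 214, 235 and 258 on labelled WAT, 3.35-fold lower (log2 -1.74 ± 0.31, adjusted p = 0.00130). It was 823 and 1795 on labelled liver. In the cold BAT read 662, 826 and 575, labelled WAT read 147.5, 185 and 359.9, and labelled liver read 1636 and 1598. No other clade B gene exceeded a signal of 22.8 on any array. Serpinb1a and Serpinb6b were detected on both cold arrays labelled liver and on none of BAT, and in the cold they exceeded BAT at least 1.19-fold and 1.12-fold (adjusted p = 0.00467 and 4.59e-04). Serpinb6c and Serpinb8 were detected on both of those arrays and on 1 and 3 BAT arrays, and neither differed from BAT in the cold by the test (adjusted p = 0.864 and 0.781). Those 2 arrays detected 17399 and 17014 probes, against 13220 to 14894 in BAT, so a dimmer signal counted as detected there. The remaining clade B genes detected, Serpinb1c, Serpinb2, Serpinb3c, Serpinb9f and Serpinb13, were found on 1 to 4 arrays each. The cold arrays labelled liver also carried more macrophage and neutrophil marker signal (2259 to 3258, against 206.7 to 528.1 in BAT), whose part was not tested.

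The study asked what 24 h of cold changed in each tissue. In BAT 4 serpins fell and none rose, where 0.587% of all genes fell and 0.424% rose. They were Serpina1b, Serpina1d, Serpinf1 and Serpinf2. Serpina1b went from 2842, 1448 and 2689 at room temperature to 473, 620.5 and 986 in the cold, 3.33-fold lower (log2 -1.74 ± 0.28, adjusted p = 0.0187). Serpina1d went from 1099, 536.5 and 906 to 147, 196 and 327, 3.64-fold lower (log2 -1.86 ± 0.29, adjusted p = 0.0161). For both genes BAT array 2 was the lowest at room temperature and array 3 the highest in the cold, and the groups did not overlap.

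By its brightest probe Serpinf2 went from 68.8, 40.1 and 85.3 in BAT at room temperature to -0.8, 8.1 and 1.5 in the cold, at least 2.65-fold lower (log2 -1.76 ± 0.30, adjusted p = 0.0246). No cold array detected that probe. The second probe of Serpinf2 showed no such fall, reading -0.2, 8.4 and 1.6, then 15.3, 3.4 and 0.4 in the cold, and was detected on BAT cold array 1. Serpinf1, which encodes PEDF, a secreted inhibitor of blood vessel growth not known to inhibit a protease, went from 1447, 1205 and 1718 to 912, 981 and 802. The fall of Serpinf1 was 1.60-fold (log2 -0.68 ± 0.12, adjusted p = 0.0265), the smallest of the 4. The median over the 41 serpins was -0.03 on the log2 scale, beside 6.34e-04 over all genes.

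Other serpins of BAT lay lower in the cold without passing the test. Serpina10 read 23.2, 25.3 and 37.7, then -2.9, -1.0 and 8.4 with cold, and the groups did not overlap (log2 -0.96 ± 0.26, adjusted p = 0.170). Serpina1a had 67.9, 34.3 and 53.2 and 8.8, 20.7 and 19.2 (log2 -1.04 ± 0.40, adjusted p = 0.444). Serpina3n, an acute phase serpin of the antichymotrypsin group that was picked here after its values were seen, had 325, 345 and 329 and 100, 107.5 and 250.2 (log2 -1.16 ± 0.27, adjusted p = 0.0930). Summed hepatocyte markers moved with these serpins in BAT, and 5 of the 10 hepatocyte markers tested fell (Ahsg, Apoa1, Fga, Ttr and Vtn), with a median log2 change of -2.12 over the list. Their part in the serpin changes was not tested. The count of 4 rested on single arrays, being 0 without BAT room temperature array 1, BAT room temperature array 3 or BAT cold array 1, 2 without BAT cold array 2, and 3 without BAT cold array 3. Without BAT cold array 3, Serpinf1 and Serpinf2 lost their calls, and the count of 3 included a serpin outside the 4. Of the other probes of Serpina1b, 1 also fell (log2 -1.54, adjusted p = 0.0439) and 1 did not pass (log2 -1.12, adjusted p = 0.267).

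On the arrays labelled WAT 1 serpin fell with cold and none rose, where 0.0653% of all genes fell and 0.0457% rose. It was Serpina7, which encodes thyroxine binding globulin, a thyroid hormone carrier of plasma. Its signals went from 122, 225 and 149.5 to 69.8, 59.2 and 66.2, 2.19-fold lower with no overlap (log2 -1.13 ± 0.15, adjusted p = 0.0252). Its second probe read 31.3, 65.9 and 41.0 and 23.1, 21.4 and 15.1 without passing (log2 -0.76 ± 0.17, adjusted p = 0.269). The call was lost, leaving a count of 0, without any of 6 arrays: the BAT room temperature arrays 1, 2 and 3, BAT cold array 2, WAT room temperature array 3 and WAT cold array 3. The count was 2 without WAT room temperature array 2.

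No other serpin passed between temperatures on the arrays labelled WAT. Serpinf2 read 5503, 5147 and 8764 in the cold and Serpina10 2698.5, 2364 and 3695.5, with log2 differences of -0.06 ± 0.30 and -0.03 ± 0.26 from room temperature. Serpina1a read 2372, 4281 and 5433 (log2 0.17 ± 0.40). The cold and room temperature arrays overlapped for all 3 of them. Serpina1b read 22168, 17599 and 19053.5 in the cold and Serpina1d 11756, 14724 and 13686. Serpina6 read 1909, 1583 and 2385 and Serpina11 724, 776 and 900.0. Serpinf1 read 9092, 8773 and 10054.5 without cold and 9973, 9145 and 10447 with it. No hepatocyte marker passed the test there, and their median change was -0.07. WAT cold array 3 read low for Serpind1, which was 1863, 1436 and 620.3 in the cold and did not pass (log2 -0.41 ± 0.37, adjusted p = 0.939).

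**Figure D3:**
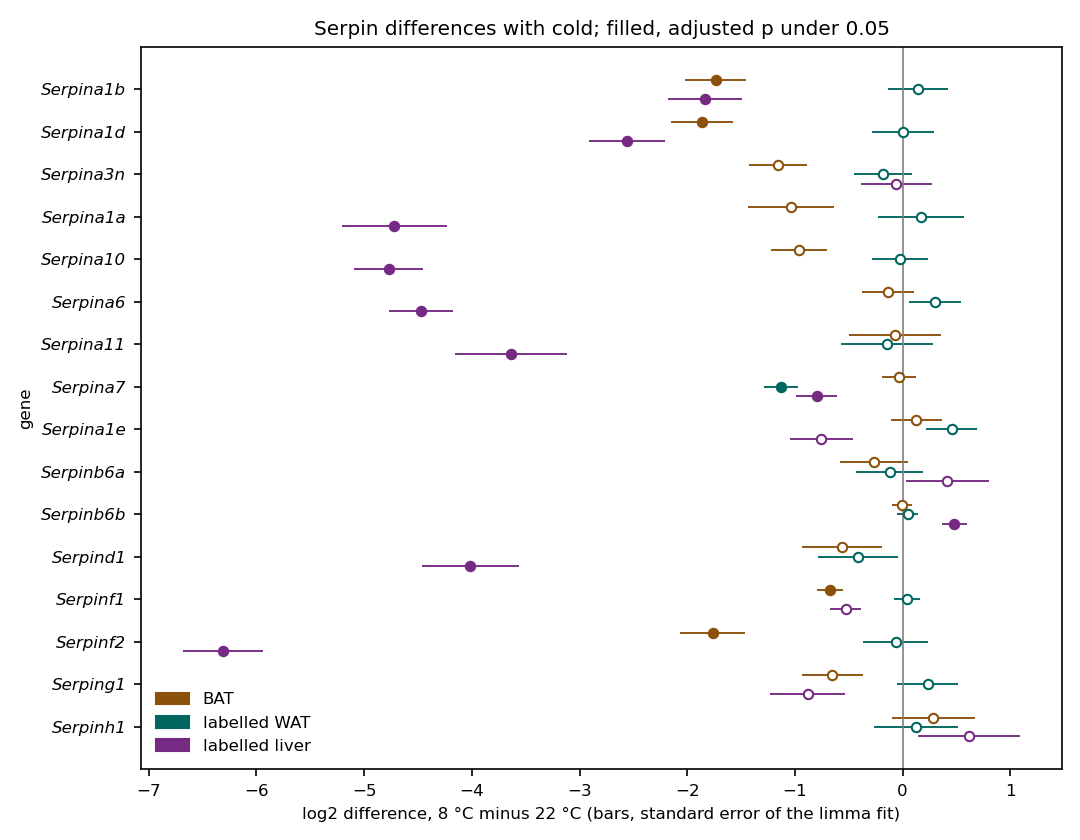
Log2 difference of 8 °C minus 22 °C (horizontal axis) for 16 serpins in BAT, on arrays labelled WAT and on arrays labelled liver, with standard errors of the limma fit as bars and filled points where the adjusted p was under 0.05. The 9 serpins that fell on labelled liver run from -0.80 (Serpina7) to -6.31 (Serpinf2), whereas the points of labelled WAT lie near 0 except that of Serpina7.

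The arrays labelled liver gave the widest changes. In the cold 9 serpins fell and 1 rose, where 3.37% of all genes fell and 1.19% rose. By its brightest probe Serpinf2 fell most, from 3332 and 2154 to 35.0 and 3.4, 79.5-fold (log2 -6.31 ± 0.37, adjusted p = 7.95e-07), with 1 of 2 cold arrays detecting it. Its second probe, which was dimmer, read 43.9 and 22.1, then 7.2 and -0.2. The mean log2 signal of that probe went from 5.56 to 4.53, a far smaller fall. Serpina10 went from 1604 and 723 to 17.5 and 33.3, 27.3-fold lower (log2 -4.77 ± 0.32, adjusted p = 1.81e-06). These cold values lay in the range of the BAT arrays for both genes.

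The corticosteroid carrier gene Serpina6 went from 711 and 351.5 to 11.1 and -7.7, 22.2-fold lower (log2 -4.47 ± 0.29, adjusted p = 1.67e-06). Serpind1 went from 554 and 225 to 8.8 and -5.1, 16.2-fold lower (log2 -4.01 ± 0.45, adjusted p = 1.77e-04). Serpina11, a neighbour of the Serpina1 genes, went from 637.5 and 104 to 6.9 and -4.3, at least 11.2-fold lower (log2 -3.64 ± 0.52, adjusted p = 0.00147). Of the cold arrays 1 of 2 detected Serpina6 and Serpind1, so their folds rest on a group partly at background. Room temperature array 2 was lower than array 1 for all 3, and its Serpina11 signal was the nearest to the cold arrays.

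Of the Serpina1 genes 3 fell on these arrays. Serpina1a went from 3698 and 1549 to 128 and 45.0, 26.3-fold lower (log2 -4.72 ± 0.49, adjusted p = 8.92e-05). Serpina1d went from 15306 and 12047.5 to 2805 and 1849, 5.90-fold lower (log2 -2.56 ± 0.35, adjusted p = 0.00106). Serpina1b went from 17358 and 19300.4 to 5985.5 and 4008, 3.57-fold lower (log2 -1.84 ± 0.34, adjusted p = 0.0109). The probes of Serpina1d and Serpina1b thus kept signals of 1849 to 5985.5 in the cold, above every BAT array, and differences between these genes' changes were not tested. At room temperature both probes were at the top of the range described above. Serpina1e was detected on both room temperature arrays and on neither cold one (30.9 and 12.5 against 0.8 and -0.4) and did not pass (log2 -0.76 ± 0.29, adjusted p = 0.299).

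At the low end, Serpina7 went from 19.0 and 18.9 to -9.4 and -3.6 on the arrays labelled liver, at least 1.38-fold lower (log2 -0.80 ± 0.19, adjusted p = 0.0469). Serpinb6b, a clade B gene, went from 6.3 and 3.2 to 12.0 and 22.8, at least 1.25-fold higher (log2 0.48 ± 0.11, adjusted p = 0.0483). No BAT array detected either of these probes, that of Serpina7 reading -1.1, -5.7 and 1.0 without cold and 2.8, -9.8 and -6.7 with cold. The second probe of Serpina7 was detected on BAT room temperature array 3, at 15.7. Serpinb6b read -5.5, -5.1 and -9.2 in BAT without cold and -9.4, -5.3 and -5.6 with cold. On labelled WAT, where it was not detected either, it read -4.2, -5.3 and -8.3 without cold and -8.3, 2.4 and -5.9 with cold. The calls of Serpina7 and Serpinb6b sat at the threshold, and each was lost without 14 of the 16 arrays left out in turn, with adjusted p up to 0.256 and 0.262. The call of Serpina1b was lost without liver room temperature array 1 or liver cold array 2 (adjusted p up to 0.0868). The other 7 calls held without any 1 array, but the folds moved with the liver arrays left, from 53.6 to 118 for Serpinf2, 18.4 to 40.5 for Serpina10, 16.9 to 41.0 for Serpina1a, 15.7 to 31.3 for Serpina6, 10.5 to 24.9 for Serpind1 and 5.29 to 29.2 for Serpina11. These folds were taken without holding undetected signals at the lowest detected signal. Neither cold array detected Serpina11, and liver cold array 2 did not detect Serpinf2, Serpina6 or Serpind1, so their ranges rest in part on background. Fitted on the labelled liver arrays alone, none of the 41 passed.

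Not all serpins bright on these arrays passed the test for a fall. Serpina3n read 3091 and 4541 without cold and 3069.7 and 4056 with it (log2 -0.06 ± 0.33, adjusted p = 0.998), and the 2 groups overlapped. Serpinf1 read 6715 and 5578 and 4195 and 4419 with no overlap and did not pass (log2 -0.53 ± 0.15, adjusted p = 0.0949). Serping1 read 3569.9 and 3933 and 1525 and 2783, also lower with no overlap, and did not pass (log2 -0.88 ± 0.35, adjusted p = 0.309). In the cold Serpina3n was 23.1-fold, Serpinf1 4.72-fold and Serping1 4.39-fold higher on labelled liver than in BAT (adjusted p = 2.27e-06, 9.28e-07 and 6.45e-04). Of the 10 hepatocyte markers tested 9 fell with cold on labelled liver, by a median log2 change of -6.04 over the list, beside -0.06 over the 41 serpins and 0.02 over all genes. Their part in the serpin changes was not tested.

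**Figure D4:**
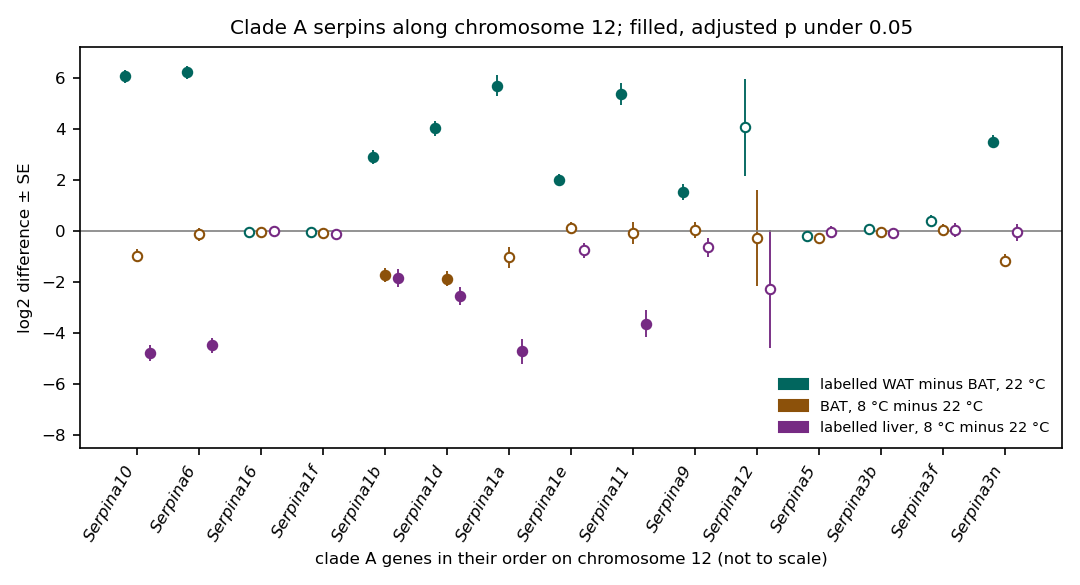
Log2 difference ± SE (vertical axis) of the 15 clade A genes measured on chromosome 12, in their order there, for labelled WAT minus BAT at 22 °C and for 8 °C minus 22 °C in BAT and on labelled liver, with filled points where the adjusted p was under 0.05. The Serpina10 and Serpina6 pair and the Serpina1 genes with Serpina11 differ widely. Of the genes between and beyond them Serpina9 was higher on labelled WAT than in BAT, and the others lie near 0 or vary between arrays. The exception is Serpina3n at the far end, which differs between labels and not with cold on labelled liver.

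By position, 15 of the 16 clade A genes lie on mouse chromosome 12, within a series of 28 serpin genes and pseudogenes in RefSeq. In order along it, Serpina10 and Serpina6 are followed by Serpina16 and Serpina1f, neither detected on any array, and then by Serpina1b, Serpina1d, Serpina1a, Serpina1e and Serpina11. Serpina9, Serpina12, Serpina5, Serpina3b, Serpina3f and Serpina3n come after these. Of the 9 genes that fell on labelled liver 6 were in this row, Serpina7 on the X chromosome, Serpind1 on 16 and Serpinf2 beside Serpinf1 on 11. Serpinf2 fell 79.5-fold there, and its neighbour Serpinf1 differed 1.44-fold without passing. Clade B genes lie on chromosomes 1 and 13.

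Whether cold acted differently under different labels was tested as a difference of responses. Between labelled liver and BAT 6 serpins differed, all falling more on labelled liver (the difference of responses was negative for 2.40% of all genes and positive for 0.829%), and between labelled WAT and labelled liver 7 differed, all likewise (positive, as for these serpins, for 2.30% of all genes and negative for 0.372%). Serpina10, Serpina11, Serpina1a, Serpina6, Serpind1 and Serpinf2 were in both, and Serpina1d in the latter alone. In BAT at room temperature the 6 in both had mean log2 signals of only 4.42 (Serpina6) to 6.28 (Serpinf2), at or not far above background. On labelled liver they had 8.12 (Serpina11) to 11.4 (Serpinf2). A fall as large as that on labelled liver could therefore not be seen in BAT. The comparison with BAT cannot tell a weaker response from a low start. The 2 tests share the arrays labelled liver. Between labelled WAT and BAT none passed limma (0% of all genes did upwards and 0.00653% downwards). A different response in BAT and on labelled WAT is therefore not shown for any serpin.

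The proteases, cofactors and receptors that serpins act on were listed as 28 genes, of which 26 were tested. In BAT 3 fell with cold and 1 rose, where 0.587% and 0.424% of all genes did and 5 of 10 hepatocyte markers fell. Vtn is on both lists. The falls were of F2 (prothrombin; at least 2.63-fold, adjusted p = 0.0273), F9 (clotting factor IX; at least 1.73-fold, adjusted p = 0.0418) and Vtn (vitronectin, an adhesion protein of plasma; 2.82-fold, adjusted p = 0.0397). Furin, a protease of the secretory pathway, rose 2.04-fold, from 54.5, 58.1 and 63.3 to 145.5, 130.8 and 129.9 (adjusted p = 0.0464). The list's median in BAT was -0.16 on the log2 scale beside 6.34e-04 over all genes. On labelled WAT none passed in either direction.

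On labelled liver 14 of the 26 fell with cold and 1 rose (3.37% and 1.19% of all genes), with a median log2 difference of -2.78. The hepatocyte markers, of which 9 of 10 fell, had a median of -6.04, and their part was not tested. Proc, the anticoagulant protein C, fell from 3075 and 1368 to 24.6 and -0.9 (70.6-fold, adjusted p = 1.59e-06), and F2, the target of Serpind1, from 2669 and 1156 to 40.1 and 7.2 (47.6-fold, adjusted p = 3.02e-06), each detected on 1 of 2 cold arrays. F10 and F12 fell 42.8-fold and at least 36.3-fold. Plat, the tissue plasminogen activator, rose from 53.6 and 70.2 to 163.1 and 118.1 (2.01-fold, adjusted p = 0.00696). Plasminogen itself, Plg, fell at least 7.87-fold (adjusted p = 0.0200), so the gene of plasmin and that of its inhibitor Serpinf2 were both lower. Agt, angiotensinogen, a serpin by fold whose symbol lies outside the rule, fell 5.90-fold on labelled liver (adjusted p = 0.0171) and did not pass in BAT or on labelled WAT.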

How the data were processed

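The authors deposited intensity values of 46643 probes with background already subtracted (38.0% below 0), a detection score from 0 to 1 per probe and array, and a log2 table, which equals log2 of signals floored at 5 minus each probe's median to within 2.54e-06. How the background was subtracted is not given in the sources used here. The methods name GeneSpring, a t-test and a 2-fold minimum.

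Intensities were corrected with limma 3.58.1 in R 4.3.3 (normexp offset 16, negative controls inferred from the scores, quantile normalisation, then log2), which understates fold changes of dim genes. One mean for each of 6 groups was fitted over 16 arrays (residual df 10), and no array was dropped in the main fit. A gene is counted by its brightest tested probe. The annotation named 1 gene for 25349 probes and none for 21294. Fits were tested on simulated data. Arrays limit the precision of every value by their number, and no 2 arrays held identical values. The groups of 3 against 3 cannot reach an exact permutation p under 0.10, so limma's shared spread was used. Promoters came from RefSeq (GRCm38.p6), and identities from Biopython 1.88.

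Values on every array are given for Serpina1a, Serpina10 and Serpinf2, for serpins passing a cold or response contrast, and for the widest room temperature difference of each clade. Members and lists were chosen with earlier results of these data known. RefSeq holds 69 Serpin symbols, and 22 with no named probe were not analysed here. Alternatives were an offset of 50, a floor of 5, 75th percentile scaling, other filters, the authors' table, a trend, labels fitted alone, a replicate block, the methods' t-test, any probe of a gene, and leaving out each array. Fits without the arrays labelled liver, and without WAT cold array 3 and liver cold array 2, were added after seeing the data.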

Additional observations from a re-analysis of the deposited data

Results flagged for a closer look

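Each result here is a difference between the cold response of 2 tissue labels that passed limma's interaction test, as a log2 value. No group had the 4 arrays that a search for single outlying arrays needs. For labelled liver minus BAT the differences were -4.55 for Serpinf2 (adjusted p = 2.48e-04), -4.33 for Serpina6 (adjusted p = 7.90e-05), -3.81 for Serpina10 (adjusted p = 2.81e-04) and -3.68 for Serpina1a (adjusted p = 0.00886). They were -3.57 for Serpina11 (adjusted p = 0.0163) and -3.45 for Serpind1 (adjusted p = 0.00781). For labelled WAT minus labelled liver they were 6.25 for Serpinf2 (adjusted p = 1.73e-05), 4.89 for Serpina1a (adjusted p = 8.99e-04), 4.77 for Serpina6 (adjusted p = 2.20e-05) and 4.75 for Serpina10 (adjusted p = 3.24e-05). The remaining differences were 3.60 for Serpind1 (adjusted p = 0.00551), 3.49 for Serpina11 (adjusted p = 0.0193) and 2.56 for Serpina1d (adjusted p = 0.0111). Both sets rest on the same 4 arrays labelled liver, whose summed hepatocyte markers also fell in the cold, and the part of those markers was not tested.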

How the results depend on the processing

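The 17 gene results by cold contrast, most of them chosen because they passed the main test, had 82 calls lost and 5 gained. These are out of 449 values under the 27 alternative settings that gave them one. None changed direction, but many of these settings could not change it. Leaving out an array of another label, another filter, a trend or fitting labels alone leaves the log2 value as it was. Fitted on the arrays of the labels compared alone, cold changed 1 serpin in BAT, 0 on labelled WAT and 0 on labelled liver, with fewer arrays to estimate the spread. The methods' t-test at its p and fold limits gave 7 in BAT, and after Benjamini-Hochberg 0 in BAT, 0 on labelled WAT and 1 on labelled liver. For labelled WAT the count was 0 when the arrays labelled liver were excluded, and 0 without WAT cold array 3 and liver cold array 2. Scaling by the 75th percentile gave 17 for labelled liver against BAT in the cold. The share of all genes called under each alternative setting was not counted. The counts in this section therefore show only how the main counts moved, not whether serpins stood out.

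The labels do not say that a replicate number marks an animal. Same-numbered arrays deviated from their group means with correlations of -0.072 to 0.104 between temperatures and of -0.133 to 0.174 between labels, and no pairing was assumed. With the replicate number as a block the labelled WAT count was 0, and the block moved no other count by over 1.5 times.

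Leaving out each array in turn, the cold counts ranged from 0 to 5 in BAT, 0 to 2 on labelled WAT and 7 to 9 on labelled liver. At room temperature they ranged from 16 to 17 for labelled WAT against BAT, 11 to 13 for labelled liver against BAT and 4 to 10 for labelled WAT against labelled liver, and in the cold from 16 to 17, 7 to 10 and 15 to 17. Differences of response ranged from 0 to 1 for labelled WAT against BAT, 5 to 7 for labelled liver against BAT and 5 to 9 for labelled WAT against labelled liver. A label with 1 array left was assumed to vary like the other groups. Probes near background limit what could be seen of clade B.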

Other observations

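Serpina12, which encodes vaspin, a serpin first known from adipose tissue, was picked here after its values were seen, because its brighter probe was either high or at background within a group. For labelled WAT its signals were -5.7, 1621 and 2080.1 without cold, and -5.2, -2.1 and 1316 with cold. For labelled liver they were -11.5 and 523.5 without cold and -0.3 and -5.2 with cold, and in BAT none exceeded 19.4. The second probe read -0.6, 32.2 and 40.1, then 21.5, 5.9 and 63.6 on labelled WAT, so that its highest arrays there were those of the first probe. In BAT in the cold it read 22.3, 22.9 and 13.4 and was detected on all 3 arrays, where the first probe was detected on none. On labelled liver room temperature array 2, where the first probe read 523.5, the second read 1.2. No contrast of Serpina12 passed, with standard errors of 1.89 or more for its cold changes on the log2 scale.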
